A study of Drosophila melanogaster with 3 samples.

Results

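The small nucleolar RNA (snoRNA) genes of the fly genome were examined for chromatin immunoprecipitation (ChIP-seq) peaks of PHDP, a paired-like homeodomain protein. All genes of biotype snoRNA on the main chromosome arms were taken from the Ensembl annotation, which gave 269 of 18164 annotated genes other than transposable elements. The peaks came from 1 group of 3 biological replicates of whole Drosophila melanogaster embryos aged 10 to 24 hours. The embryos were of a transgenic line that stably expressed PHDP with green fluorescent protein fused to its C terminus, and an anti-GFP antibody was used. No embryos without the tagged protein were analysed here, so a peak marks a place enriched by that antibody, and whole embryos do not show which cells carried it. The main peak list was the authors' list of 7092 peaks that passed an irreproducible discovery rate (IDR) filter, and a longer list of 30000 peaks called on the pooled replicates served as the looser comparison. Each replicate also had its own list of 30000 peaks, so list length carries no information on the amount of binding, and the sequencing depth is unknown.

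Most snoRNAs guide the chemical modification of other RNAs, above all ribosomal RNA. Box C/D snoRNAs guide methylation of the ribose by fibrillarin, box H/ACA snoRNAs guide the conversion of uridine to pseudouridine by a dyskerin-type enzyme, and a smaller group, the scaRNAs, acts on spliceosomal RNAs in Cajal bodies. In flies and other animals most of them have no promoter of their own. They lie in introns of a host gene and are released from its spliced intron, so that transcription of a snoRNA starts at the promoter of its host. Many hosts code for ribosomal proteins or translation factors, and some hosts, the U snoRNA host genes (Uhg), make a spliced RNA that codes for no known protein. U3 is an exception with a promoter of its own, and it acts in the cleavage of the ribosomal RNA precursor.

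The sequences below show both sides of this arrangement: host promoters that carried an IDR peak, and snoRNAs made from such hosts. The promoters run from 200 bases before the annotated start nearest the peak summit to the first 10 transcribed bases, on the strand of the gene, and were read from the dm6 genome (release 6). CG1142 carried the strongest peak of any host promoter and RpL14 the strongest of a ribosomal protein host. RpS7 is a ribosomal protein host of 7 snoRNA genes, and Uhg2 is a non-coding host. Capitals mark the words that were searched. They are GGTCACAC (Motif 1) in CG1142, TATCGATA (the DNA replication-related element, DRE) and a CTTT at the start in RpS7, a CTTT at the start in RpL14, and TAATTA, the core of many homeodomain sites, in Uhg2. The windows are chr3R:7473772-7473981 (minus strand) for CG1142, chr3L:8600806-8601015 (plus strand) for RpL14, chr3R:30208933-30209142 (minus strand) for RpS7 and chr2L:9894994-9895203 (minus strand) for Uhg2.
CG1142 promoter: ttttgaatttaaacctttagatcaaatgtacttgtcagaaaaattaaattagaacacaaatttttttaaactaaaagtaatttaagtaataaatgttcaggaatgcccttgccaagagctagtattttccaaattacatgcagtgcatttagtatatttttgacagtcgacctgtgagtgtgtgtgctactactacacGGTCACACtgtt
RpL14 promoter: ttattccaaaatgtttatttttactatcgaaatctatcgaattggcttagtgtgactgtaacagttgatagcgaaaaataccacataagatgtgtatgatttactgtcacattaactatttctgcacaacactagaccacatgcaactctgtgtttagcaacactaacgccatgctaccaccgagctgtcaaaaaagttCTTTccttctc
RpS7 promoter: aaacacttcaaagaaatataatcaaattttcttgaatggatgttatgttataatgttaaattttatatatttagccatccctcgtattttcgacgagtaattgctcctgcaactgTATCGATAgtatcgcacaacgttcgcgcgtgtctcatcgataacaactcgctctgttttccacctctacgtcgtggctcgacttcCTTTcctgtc
Uhg2 promoter: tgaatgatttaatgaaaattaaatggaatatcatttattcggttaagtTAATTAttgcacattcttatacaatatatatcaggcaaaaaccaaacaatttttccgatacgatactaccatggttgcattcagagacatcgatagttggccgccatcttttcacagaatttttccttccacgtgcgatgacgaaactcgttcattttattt

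The snoRNAs of such hosts show the short boxes by which the families are defined. Capitals mark the C box (TGATGA) and the D box (CTGA) in the box C/D type, and the ACA near the end in the box H/ACA type. The first sequence lies in RpL14 (chr3L:8601473-8601552, plus strand), the second in Uhg2 (chr2L:9894477-9894544, minus strand) and the third in RpS7 (chr3R:30207745-30207883, minus strand). The last is from the ribosomal protein gene RpS5a (chrX:17146612-17146759, minus strand), shown because a pooled peak summit fell inside it.
snoRNA:U49:66Da: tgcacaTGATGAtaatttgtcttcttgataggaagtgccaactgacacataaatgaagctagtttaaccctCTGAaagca
snoRNA:Me18S-G1620: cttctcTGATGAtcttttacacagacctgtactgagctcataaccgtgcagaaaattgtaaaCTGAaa
snoRNA:Psi18S-1377a: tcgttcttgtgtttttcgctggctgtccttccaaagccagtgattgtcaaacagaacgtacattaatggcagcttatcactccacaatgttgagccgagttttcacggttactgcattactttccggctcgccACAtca
snoRNA:Psi28S-1135a: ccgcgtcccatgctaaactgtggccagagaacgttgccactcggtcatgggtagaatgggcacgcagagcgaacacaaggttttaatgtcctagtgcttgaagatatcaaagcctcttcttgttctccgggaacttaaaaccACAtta

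The annotation was checked against these boxes over all 269 members. By their symbols 101 were box C/D, 120 were box H/ACA, and 48 had symbols that give no family. An ACA lay in the last 8 bases of 114 of the 120 box H/ACA genes, and 0 of them had both a C and a D box. Among the 101 box C/D genes, 67 had TGATGA in the first 20 bases together with CTGA in the last 20. The families also differed in length, with a median of 80 bp for box C/D and 140 bp for box H/ACA genes, and all members spanned 46 to 316 bp.

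Most members lay inside a host gene. A gene on the same strand contained 247 of the 269, of which 227 were intronic and 20 overlapped an annotated exon of the host. Another 10 lay within a gene on the opposite strand only, and 12 lay in no other gene. The 247 came from 92 hosts: 28 ribosomal protein genes with 71 snoRNA genes, 10 non-coding genes with 55, 53 other protein-coding genes with 120, and the translation factor gene eEF1alpha1 with 1. Because the snoRNA genes of 1 host share its promoter, the host and not the snoRNA gene is the separate locus. The sharing was uneven, since 55 hosts held a single snoRNA gene while 14 hosts with 5 or more held 129.

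Peaks lay beside many snoRNA genes. IDR summits lay inside 0 of them, but these genes are short, with a median of 134 bp. The number expected inside them was not computed, so no conclusion is drawn from the 0. An IDR summit lay within 2 kb of 145 of the 269 members (53.9%), where the background was 39% of all annotated genes, 42.4% of protein-coding genes and 35.2% of transfer RNA (tRNA) genes. With the strongest 5000 peaks of each replicate, 110, 126 and 125 members were linked in replicates 1, 2 and 3, a share of 44.7% ± 3.33 (SD, n = 3) against 32.4% ± 0.531 of all genes. The lowest replicate of the snoRNA genes was above the highest of all genes. In the pooled list 205 members (76.2%) were linked, against 59.6% of all genes and 75.5% of tRNA genes, so the looser list did not separate the snoRNA from the tRNA genes. With a link distance of 500 bp, only 23 members had a linked IDR summit. That share was below the 21.3% of all genes with an IDR summit within 500 bp of a start. At 2 kb the nearest IDR summit was upstream of 122 and downstream of 23, at 72 to 1973 bp with a median of 966 bp.

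The nearest linked IDR summit was at the promoter of the host for 90 of the 145 (62.1%), where a promoter is the sequence within 500 bp of any annotated start. It was at the promoter of another gene for 22, in the body of the host for 20 and elsewhere for 13. Counting any linked summit and not the nearest alone, 105 members had 1 at the host promoter. In all, 84 separate IDR summits made these links, 76 of them matched within 100 bp in all 3 replicates. The signal is the authors' own score for each peak and is comparable only within a list. Its median was 351 at the 84 linked summits and 301 over all IDR peaks.

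**Figure D1:**
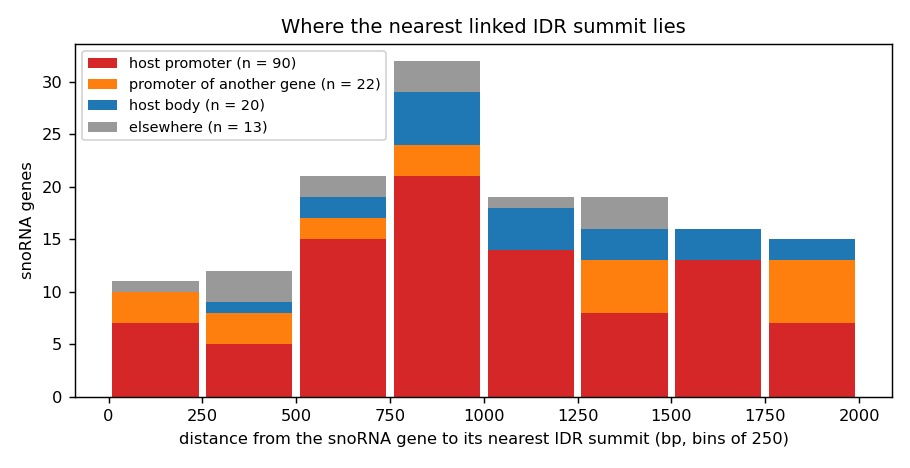
Number of snoRNA genes (vertical axis) by distance to the nearest IDR summit in bp (horizontal axis, bins of 250), coloured by where that summit lay, for the 145 linked genes. The host promoter was the most frequent place, for 90 of the 145 genes.

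Of the 22 links to another gene's promoter, 6 were of snoRNA genes without a same-strand host and 16 of snoRNA genes in a host, such as Uhg7 and Uhg1. Uhg7 lies inside the ribosomal protein gene RpL23A, and 3 of its 4 snoRNA genes were linked to the peak at the RpL23A start. That peak had an IDR signal of 1007 and replicate signals of 323, 357 and 311, while Uhg7 itself had no summit at its start in either list. Uhg1 gave 4 such links, to the promoter of rdgBbeta, a neighbouring gene. Of the 20 links to a host body, 10 came from Arpc2 alone, which codes for a subunit of the actin-nucleating Arp2/3 complex. They all rested on 1 peak in the gene body with an IDR signal of 176 and replicate signals of 38.2, 71.5 and 70.5, a weak peak at rank 6875 of the IDR list.

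By family, 65 of the 101 box C/D genes (64.4%) and 56 of the 120 box H/ACA genes (46.7%) had a linked IDR summit. The replicates gave 45, 62 and 59 box C/D genes, and 45, 47 and 47 box H/ACA genes. Replicate 1 stood apart for box C/D, and this came from the non-coding hosts Uhg5 and Uhg1, whose nearby peaks were weak in that replicate. The Uhg5 promoter peak had signals of 56.0, 101 and 94.8 in replicates 1, 2 and 3, and the peak near Uhg1 had 56.1, 107 and 89.0. Over all members the replicate shares were 54.8% ± 8.98 for box C/D and 38.6% ± 0.962 for box H/ACA (SD, n = 3). Without the snoRNA genes of these hosts, 48, 48 and 45 of 85 box C/D genes were linked in replicates 2, 3 and 1. That was a mean of 55.3% ± 2.04 (SD, n = 3), but the hosts were left out because of their replicate 1 values, so the smaller SD follows from that choice. At the level of host promoters, 29 of the 43 hosts of a box C/D gene (67.4%) and 23 of the 35 hosts of a box H/ACA gene (65.7%) had an IDR summit there. The replicate shares, 62.0% ± 1.34 and 61.0% ± 4.36 (SD, n = 3), overlapped.

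Of the 124 members without a linked IDR summit, 60 had a pooled summit within 2 kb and 64 had none in either list. For 40 of the 124 the host promoter did carry an IDR peak, but more than 2 kb away from the snoRNA gene. These 40 came from 14 hosts, with 11 in RpS5a, 7 in Arpc2, 6 in kra and 6 in Hrb98DE. The 2 kb rule therefore left out snoRNA genes far from the start of their host. Counted by host promoter in place of distance, 163 of the 247 hosted members had an IDR peak at the start of their host.

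Peaks at host promoters were more frequent than at protein-coding promoters in every replicate. An IDR summit lay at the promoter of 61 of the 92 hosts (66.3%), against a background of 25.1% of protein-coding genes and 21.3% of all genes. With the strongest 5000 peaks of a replicate, 55, 55 and 54 hosts had a promoter peak in replicates 1, 2 and 3. That was 59.4% ± 0.628 of hosts against 19.4% ± 0.338 of protein-coding genes (SD, n = 3). The difference was 40.8, 40.3 and 39.1 percentage points in the 3 replicates, a mean of 40.0 ± 0.881 (two-sided exact sign-flip permutation p = 0.25, the smallest that 3 replicates can give). In the pooled list 74 hosts had a promoter peak, against 45.8% of protein-coding genes.

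The 28 ribosomal protein hosts all had an IDR peak at the promoter. The replicates gave 25, 27 and 26 of them, or 92.9% ± 3.57 (SD, n = 3). Here a gene without a snoRNA is one that was not the assigned host of any snoRNA gene. Ribosomal protein genes without a snoRNA had an IDR peak in 50 of 65 (76.9%). They include RpL23A, which contains Uhg7 and its snoRNA genes. Ribosomal protein genes were taken by symbol, and paralogue copies were not set apart. The replicate share of the genes without a snoRNA was 73.3% ± 3.20, and its highest value was below the lowest of the ribosomal protein hosts. With the strongest 1000 IDR peaks the shares were 25% and 23.1%, so the difference was small among the strongest peaks. Protein-coding hosts other than ribosomal protein genes, eEF1alpha1 included, had a promoter peak in 29 of 54 (53.7%) against 24.6% of the other protein-coding genes without a snoRNA. Their replicate shares were 46.3% ± 3.21 and 18.9% ± 0.363 (SD, n = 3), which did not overlap. Non-coding hosts had a promoter peak in 4 of 10, against 9.29% of the 3261 non-coding RNA genes, and in 3, 4 and 4 of 10 in the replicates. Ribosomal protein genes therefore carried the highest share, and the excess over the matching background was present outside them too.

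**Figure D2:**
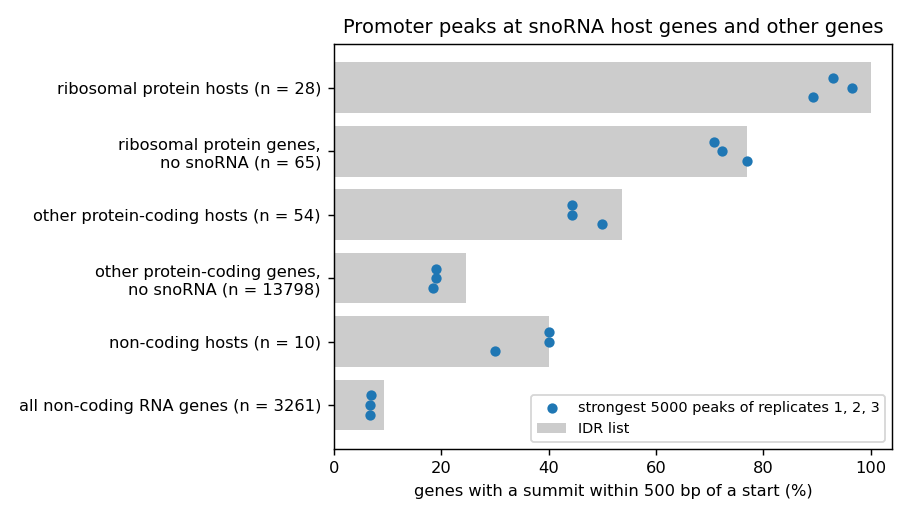
Share of genes with a summit within 500 bp of a start, in percent (horizontal axis), for the host classes and the matching genes without a snoRNA or all non-coding RNA genes. Grey bars are the IDR list and points the strongest 5000 peaks of each of the 3 replicates. Each host class lies above the class it is set beside.

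Crowded starts and numbers of starts were checked because 1 peak can count for several genes. Another gene's start lay within 500 bp of the summit at 31 of the 61 host promoters, and at 13 it was nearer than the start of the host. When each IDR peak was given only to the gene of the nearest start, 51 of the 92 hosts (55.4%) kept a peak, against 19.1% of protein-coding genes. By class this was 27 of the 28 ribosomal protein hosts, against 73.8% of ribosomal protein genes without a snoRNA. For the other protein-coding hosts it was 38.9% against 18.6% of their background. Among genes with a single annotated start, 27 of 47 hosts (57.4%) had a promoter peak, against 18.7% of protein-coding genes. The host shares were above the background under both restrictions.

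The position of the peak also differed between host classes. In the ribosomal protein hosts the strongest IDR summit lay from 142 bp upstream to 91 bp downstream of the nearest start, with a median of 1 bp upstream, and 26 of 28 were within 100 bp. In the 28 other protein-coding hosts with a peak the median was 152.5 bp upstream, and 9 of 28 were within 100 bp. At 11 of these 28 another gene's start was nearer, against 1 of the 28 ribosomal protein hosts. The median IDR signal was 554 at ribosomal protein hosts, 376 at other protein-coding hosts and 399 at the 4 non-coding hosts.

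**Figure D3:**
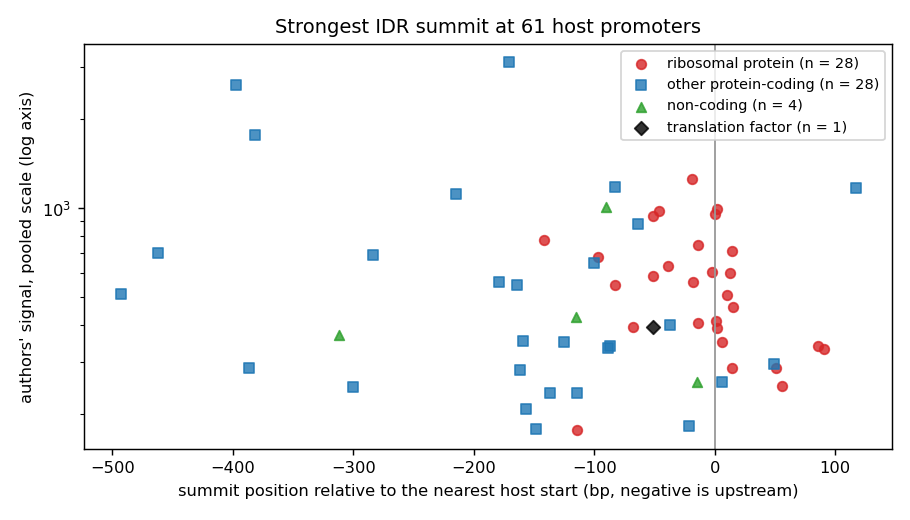
Authors' signal of the strongest IDR summit at each of the 61 host promoters with a peak (vertical, logarithmic axis) against its position relative to the nearest host start in bp (horizontal axis, negative is upstream), by host class. The ribosomal protein hosts gather at the start, and the other protein-coding hosts spread to 493 bp upstream and include the strongest signals.

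Signals at host promoters were somewhat higher than at other promoters. Among IDR peaks matched in every replicate within 100 bp, 69 host promoter peaks and 2530 other promoter-proximal peaks were compared within each replicate list. The difference of their median log2 signals was 0.34, 0.21 and 0.18 in replicates 1, 2 and 3, a mean of 0.24 ± 0.08 (SD, n = 3; two-sided exact sign-flip permutation p = 0.25, the smallest possible). The direction was the same in 3 of 3 replicates.

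The strongest peak at a host promoter was that of CG1142, host of scaRNA:MeU5-C46, a box C/D scaRNA gene by its symbol and boxes. Its signals were 1001, 1209 and 906 in replicates 1, 2 and 3, with a mean of 1039 ± 155 (SD, n = 3), and it ranked 43 in the IDR list. The peak spans chr3R:7473735-7474215, its summit is 171 bp upstream of the start, inside the promoter window printed above, and the scaRNA gene is 730 bp away. Replicate 2 was the highest, as it also was at Stt3A, the second host in signal, which codes for a catalytic subunit of oligosaccharyltransferase. Stt3A had signals of 771, 1083 and 739, but its summit lay 397 bp upstream and nearer the start of bves. The strongest promoter peak of every other host with an IDR peak was below 739 in each replicate where it was matched.

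In some long hosts the promoter peak was far from the snoRNA gene. Msp300, a nesprin that anchors nuclei in muscle, had a mean signal of 592 ± 97.1 (SD, n = 3), with its snoRNA gene 94253 bp from the summit. Dys, the fly dystrophin gene, had 374 ± 70.5, with its snoRNA gene 125326 bp away. Both genes have several starts, and the span of the gene held 5 IDR summits in Msp300 and 11 in Dys, counting promoter summits that lie inside it. CG12316, host of scaRNA:MeU5-U42, had 387 ± 80.0 at 117 bp downstream of its start. Irbp, which codes for the Ku70 subunit of DNA end binding, had 388 ± 86.8 at 83 bp upstream of its start. The start of mgr also lay within 500 bp of that summit.

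Among ribosomal protein hosts, RpL14 was the strongest, with 441, 396 and 402 in replicates 1, 2 and 3 and a mean of 413 ± 24.2 (SD, n = 3). Its peak, chr3L:8600757-8601184, has its summit 19 bp upstream of the start, and the start of Nelf-E also lies within 500 bp. Both of its snoRNA genes, snoRNA:U49:66Da and snoRNA:U49:66Db, lay within 2 kb, at 486 and 961 bp. RpL30, RpS4, RpL13A and RpL11 followed with means of 336 ± 65.0, 324 ± 72.3, 318 ± 55.1 and 308 ± 27.9, which overlapped in their replicate values. Their summits lay 2 bp downstream, at the start itself, 46 bp upstream and 51 bp upstream.

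**Figure D4:**
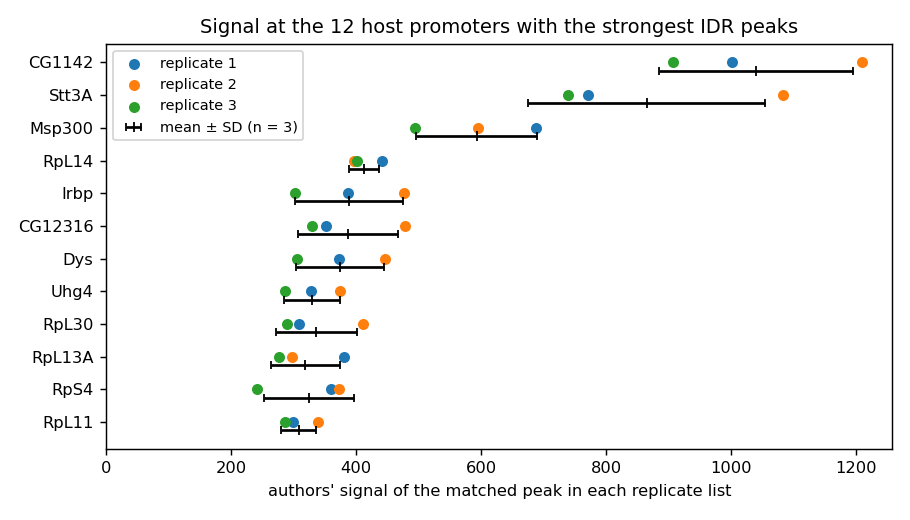
Authors' signal of the matched peak in each replicate list (horizontal axis) at the 12 host promoters with the strongest IDR peaks, with the mean and SD of the 3 replicates below the points. CG1142 and Stt3A lie at 739 or above in each replicate, Msp300 lies between 494 and 688, and the other hosts reach at most 478.

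Of the U snoRNA host genes, Uhg4 had the strongest promoter peak, with 328, 374 and 285 in replicates 1, 2 and 3 and a mean of 329 ± 44.5 (SD, n = 3). Its summit was 90 bp upstream of the start, no other gene's start was within 500 bp, and all 7 of its snoRNA genes were linked. Uhg2, whose promoter is printed above, had 159, 122 and 125 at 115 bp upstream, with the start of Bka close by, and all 4 of its snoRNA genes were linked, the 2 copies of U14 included. Uhg8 had 113 ± 42.1 at 312 bp upstream, nearer the start of CG5199. Uhg5 had 56.0, 101 and 94.8 at 15 bp upstream, and its 11 box C/D snoRNA genes were all linked. The peak was low in replicate 1, where it was not among the strongest 5000. A second IDR peak just past the end of Uhg5, with an IDR signal of 262, was the nearest summit for 5 of the 11.

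Uhg1 and Uhg3 had a promoter summit in the pooled list only. That of Uhg1, which holds 16 snoRNA genes, was 94 bp upstream with a pooled signal of 144 and rank 8570, and that of Uhg3 was 26 bp upstream with 151. Other hosts of this kind were tou, a chromatin regulator (158, at 107 bp upstream), the small GTPase gene Arf1 (150, at 48 bp upstream) and Tudor-SN (149, at 105 bp upstream). The lowest signal in the IDR list was 172 on the same pooled scale, so these 5 peaks were below that limit. Of the 31 hosts without an IDR promoter peak, 13 had a pooled one and 18 had none.

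**Figure D5:**
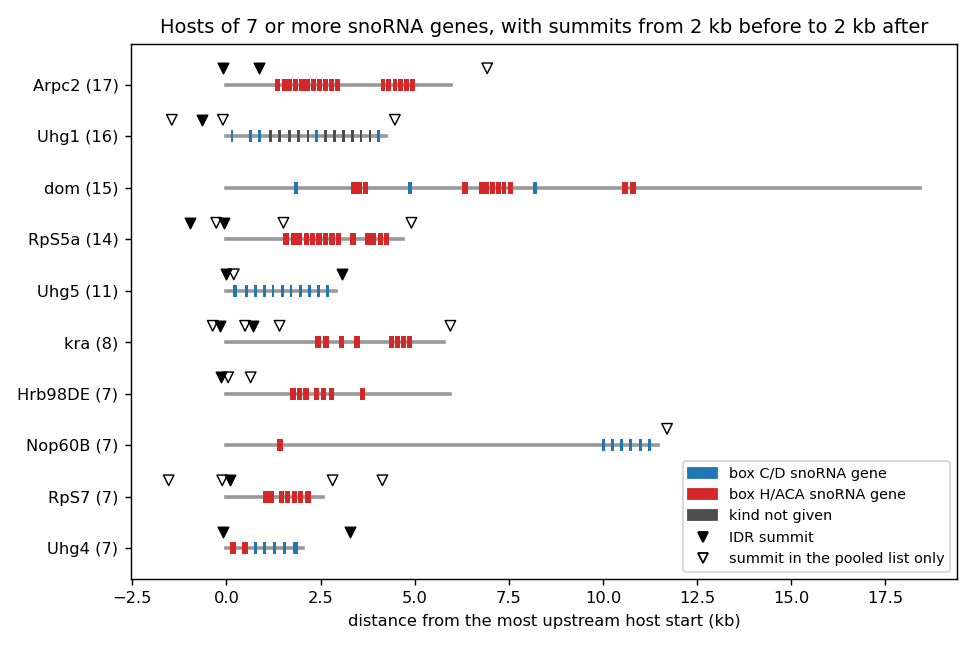
The 10 hosts with 7 or more snoRNA genes, drawn from the most upstream start (horizontal axis, distance in kb, transcription to the right), with snoRNA genes coloured by family. Filled triangles are IDR summits and open triangles summits in the pooled list only. IDR summits stand at or near the start of Arpc2, RpS5a, Uhg5, kra, Hrb98DE, RpS7 and Uhg4, and dom has no summit in either list.

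The hosts with most snoRNA genes were not those with the strongest peaks. Arpc2, with 17 box H/ACA genes, had promoter signals of 152, 107 and 74.6 in replicates 1, 2 and 3, at a summit 87 bp upstream that lay nearer the start of CG10949. RpS5a, with 14, had 187, 93.0 and 116 at 68 bp upstream, and 3 of its 14 snoRNA genes were within 2 kb of an IDR summit while all 14 were within 2 kb of a pooled one. The gene kra, with 8, had 118, 140 and 96.0 at 159 bp upstream, nearer the start of SecS. RpS7, with 7, had 191, 173 and 146 at 10 bp downstream, and 6 of its 7 were linked.

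Other large hosts had no IDR peak near any of their snoRNA genes. The gene dom, a chromatin remodelling ATPase with 15 snoRNA genes in a gene of 18418 bp, had none in the pooled list either, and a promoter summit among the strongest 5000 peaks of replicate 2 only. Nop60B, the fly dyskerin and so the enzyme of box H/ACA particles, holds 6 box C/D genes and 1 box H/ACA gene. It had no promoter summit in either list, and 6 of its 7 snoRNA genes were linked in the pooled list. CG10576 with 5 and lncRNA:CR45184 with 5 had no link in either list. Sf3b3, a splicing factor gene that contains lncRNA:CR45184 and holds 4 further snoRNA genes, had a pooled promoter summit with a signal of 144.

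The 22 snoRNA genes without a same-strand host had an IDR link in 11 cases, 6 of 12 in no gene and 5 of 10 opposite to a gene. That was 50% of each of these small groups, against 39% of all annotated genes. The links were not all separate, since 1 summit was linked to 4 of these genes and another to 3. The strongest linked peak was within egr, which codes for the fly tumour necrosis factor ligand and lies on the other strand. It was 474 and 454 bp from snoRNA:Or-ACA6 and snoRNA:Or-CD13, with replicate signals of 214, 291 and 183. The peak linked to snoRNA:185, 188 bp away, was at the start of a glutamate tRNA gene and varied widely, with 41.9, 173 and 72.1. The peak at the CG13334 start, 446 bp from snoRNA:Psi28S-1153, had a mean of 98.6 ± 30.0 (SD, n = 3). A peak 78 bp upstream of snoRNA:Psi18S-301 had no other start within 500 bp, and its signals were 102, 77.8 and 76.8. It was the only hostless member whose linked IDR peak lay within 100 bp with no other start near.

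The 3 U3 genes, which are transcribed from promoters of their own, had no IDR summit within 2 kb. In the pooled list snoRNA:U3:54Aa and snoRNA:U3:54Ab had summits at 282 and 266 bp with signals of 48.7 and 37.5, both at starts of leucine tRNA genes. The pooled summit inside snoRNA:U3:9B had a signal of 35.7, near the lowest in that list, 35.2. Besides U3:9B, 5 snoRNA genes had a pooled summit inside, of which snoRNA:Psi28S-1135a is printed above.

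The peak windows at host promoters were searched for short words within 100 bp of the summit, on both strands. TATCGATA (DRE), bound by DREF at housekeeping promoters, was in 8 of the 61 windows (13.1%), against 6.74% of 2907 other promoter-proximal IDR peaks and 3.12% of all IDR peaks. Of these 8, 6 were among the 28 ribosomal protein hosts. GGTCACAC (Motif 1, a core promoter word of housekeeping genes) was in 3 (4.92%) against 4.71%, and TAATTA in 11 (18.0%) against 18.6% and, over all IDR peaks, 18.8%. The paired homeodomain sites P3 and P2, inverted repeats of TAAT, were each in 1 window (1.64%), against 3.27% and 3.06%. For TAATTA the order of host and other promoter peaks changed with the window: within 50 bp it was in 11.5% against 11.2%, and within 200 bp in 31.1% against 29.2%. Counts of 1 allow no comparison for P3 and P2. Median GC content was 43.5% at ribosomal protein hosts, 31.8% at the other hosts with a peak and 34.3% at other promoter-proximal peaks.

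Ribosomal protein genes of flies start within a run of pyrimidines, the TCT initiator. CTTT, a part of it, began within 5 bases of a start in 31 of the 92 hosts (33.7%), against 8.07% of protein-coding genes. It was in 18 of the 28 ribosomal protein hosts (64.3%) and in 61.5% of ribosomal protein genes without a snoRNA, and in 18.5% of the other protein-coding hosts against 7.66% of their background. Outside the ribosomal protein hosts, 6 of 33 hosts with a promoter peak and 7 of 31 without 1 had the word. In the windows from 200 bases before to 10 after a start, DRE was in 23.9% of hosts against 8.62% of protein-coding genes, and Motif 1 in 15.2% against 5.66%. DRE was in 23.0% of hosts with a promoter peak and in 25.8% of those without. These word shares were not restricted to genes with a single annotated start, which were 47 of 92 hosts and 10246 of 13945 protein-coding genes. The part of the number of starts in these differences was not tested. A match is a description of the sequence, and binding of these words was not measured.

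The proteins that build snoRNA particles were looked at as a list of 16 genes, 8 core proteins and 8 partners in assembly, U3 function or nucleolar and Cajal body organisation. An IDR summit lay at a start of 7 of the 16 (43.8%), against the background of 25.1% of protein-coding genes. Among the core proteins 2 of 8 had such a summit, a share at the background. They were Fib, the fibrillarin methyltransferase, and nop5, a core protein of box C/D particles, with means of 113 ± 34.5 and 89.8 ± 39.3 (SD, n = 3). The Fib peak lay nearer the start of CG3085. Both are themselves snoRNA hosts, as is Nop60B. Among the partners 5 of 8 had an IDR summit at a start, so the excess of the list lay with the partners. The strongest was pont, an ATPase that helps assemble box C/D particles in yeast and human cells, with 660, 575 and 471 in replicates 1, 2 and 3 at 115 bp upstream. Its partner ATPase rept had 120 ± 36.1, and Nopp140, a chaperone of snoRNA particles in the nucleolus, 154 ± 28.7. The Cajal body gene coil had 86.6 ± 26.0 and the assembly factor Nufip 79.2 ± 43.1. The values of pont were above those of the other 6 in every replicate.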

How the data were processed

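Anti-GFP ChIP-seq was done in 3 biological replicates of whole PHDP-GFP embryos. Per the labels, chromatin was sonicated to a size range of 200 to 800 (unit not given). Per the deposited notes, the authors called each replicate's peaks against 1 shared control, pooled peaks from the 3 alignments, and the IDR list from these lists, on dm6. The sources used here do not name an aligner or a peak caller. Each peak carries a signal and a −log10 q value deposited by the authors. The signal was compared only among peaks of the same list, and the −log10 q values were not used. Mitochondrial peaks were left out, and the control was not analysed here.

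Coordinates are 1-based. Genes and starts came from Ensembl release 115 (BDGP6.54). A host was the shortest gene of another biotype that contains the snoRNA gene on its strand. A summit was linked within 2 kb of the gene, and at a promoter within 500 bp of a start. Replicate values used the strongest 5000 peaks of each replicate, or the peak within 100 bp of the summit. Ribosomal protein genes and snoRNA families were taken from symbols, and 2 of the 16 particle genes matched by synonym. The 3 replicates are the only units of replication, so no test was run over genes. Errors are SDs over replicates and do not cover which genes are members. Sequencing depth is unknown. No peak was identical between replicates.

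The members and lists were chosen with earlier results of these data known. Genes named were the 12 hosts with the strongest promoter peaks, the 6 with most snoRNA genes, the 5 largest without a linked IDR summit, the 5 strongest with a pooled promoter summit only, the hostless genes with the strongest links, U3 and the particle genes with a peak. The remaining U snoRNA host genes, RpS7, Hrb98DE, Nop60B and the examples of links were chosen after their values were seen. Leaving Uhg1 and Uhg5 out of a box C/D count was also chosen then. In 20 simulated sets the calculation recovered all 100 planted links and all 25 planted host promoters. Python 3.11.15, numpy 2.4.6, pandas 2.3.3 and matplotlib 3.10.9 were used.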

Additional observations from a re-analysis of the deposited data

How the results depend on the processing

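A background was also computed for host promoter shares, signals and words over all host promoter peaks. Under these alternatives, differences from it changed sign only for the words TAATTA and P2. The share of TAATTA windows was below that of other promoter peaks at 100 bp and above it at 50 and 200 bp. The share of P2 windows, 1.64% or 1 window, was below the 2.65% of all IDR peaks at 100 bp. At 50 bp the same 1.64% was above their 1.44%. Shorter link distances lowered the count of linked snoRNA genes from 145 to 76 at 1 kb and 23 at 500 bp, and the count with the nearest summit at the host promoter from 90 to 48 at 1 kb. At 500 bp the share, 23 of 269, was below the 21.3% of all annotated genes with an IDR summit within 500 bp of a start. The excess over all genes at 2 kb was therefore not present at 500 bp. A background share was not computed at 1 kb. The stronger IDR peaks, from the median signal up, linked 95 snoRNA genes and left 18 of 28 other protein-coding hosts with a promoter peak. With the strongest 1000 IDR peaks 30 snoRNA genes were linked, and 15 hosts had a promoter peak: 7 ribosomal protein, 1 non-coding and 7 other protein-coding. Ribosomal protein hosts were then at 25% against 23.1% of ribosomal protein genes without a snoRNA, so most of that difference was gone, while other protein-coding hosts were at 13.2% against 5.19%. Fewer peaks or shorter distances enter by construction. The host promoter count was 51 when each peak went to the nearest start only, and 61 of 90 hosts when the longest containing gene was the host, both chosen after seeing the data. Without each replicate in turn it was 52 to 53, and 50 hosts kept their peak in all 3 of these sets. The difference from protein-coding promoters was 25.4 percentage points for hosts other than ribosomal protein genes and 26.8 with the strongest 2500 peaks. Windows of 50 bp gave DRE in 3, TAATTA in 7 and P3 in 0 host promoter peaks, and windows of 200 bp gave Motif 1 in 7, TAATTA in 19 and P2 in 2. Without each replicate in turn P3 was in 0 windows and 106 to 126 snoRNA genes were linked. No paired analysis was possible because the series has 1 group. The depth of the libraries is unknown. Without untagged embryos the antibody background at highly transcribed promoters, such as those of ribosomal protein genes, was not measured here, and its part in their high share was not tested.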
